A study of Mus musculus with 36 samples.

Results

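Tnf, which encodes tumour necrosis factor, and 9 genes of its signalling pathway were followed through RNA sequencing of RAW 264.7 cells, a mouse macrophage-like cell line. They were the receptor genes Tnfrsf1a, Tnfrsf1b and Cd40, the adaptor genes Traf1 and Traf2, the ubiquitin ligase gene Birc3, the inhibitor genes Tnfaip3 and Tnip1, and the TNF-induced gene Tnfaip2. These 10 of 53465 genes in the count table were taken by their symbols. The set was selected on values of these same libraries, namely the changes with LPS and with melatonin alone against solvent, so those contrasts are given as a description without p-values, and where a number of genes past the threshold is given for them, nothing is read from it. Other contrasts that use the LPS or melatonin-alone libraries, and differences built from them, share libraries with that choice. Their p-values are therefore not independent of it. All 10 were among the 16988 genes that passed the filter on low counts.

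Cells received melatonin, a hormone tested here as an anti-inflammatory agent, lipopolysaccharide (LPS, an outer-membrane component of Gram-negative bacteria that activates macrophages), both, or neither. Of 12 groups of 3 libraries each, 5 received LPS at 10 µg/mL with melatonin at 0.1, 1, 10, 100 or 1000 µM (1 mM), the melatonin being given 30 min earlier, and 1 received LPS without melatonin. Another 5 groups received melatonin alone at the same doses, and 1 received solvent. All groups were wild-type cells of 1 cell line harvested after 12 h, so every statement refers to that line, at 1 time point and 1 dose of LPS.

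Tumour necrosis factor is made by macrophages as a membrane protein and is shed by the protease ADAM17. Its receptor TNFR1, encoded by Tnfrsf1a, carries a death domain and assembles a complex of TRADD, RIPK1, TRAF2 and cIAP ubiquitin ligases that leads to NF-kB activation, and TNFR2, encoded by Tnfrsf1b, lacks the death domain and binds TRAF2 directly. Toll-like receptor 4, which senses LPS, also activates NF-kB, and several genes of the set are known NF-kB targets, among them inhibitors that limit the same pathway.

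Library totals ranged from 4203313 to 7590271 counts, and levels are given as CPM, counts scaled by TMM (trimmed mean of M values) library sizes. Whether replicate libraries stem from separate cultures is not stated in the labels, so p-values measure a spread between libraries that may be technical. Macrophage markers (8 genes) summed to 2701 to 3722 CPM with LPS and 1 mM melatonin, against 11018 to 11208 CPM with LPS and 12383 to 13068 CPM with solvent. Lyz2 and Csf1r made up 89.99% of that sum, and the other 6 markers summed to 642 to 759 CPM, against 1297 to 1365 CPM with LPS and 1117 to 1180.0 CPM with solvent. Markers of T cells, B cells, fibroblasts and epithelial cells (5 genes each) summed to at most 13.8, 1.36, 9.36 and 1.67 CPM in any library, with most of the T cell sum from Lck and with Krt18 at 0 counts throughout. Without LPS, 2 libraries went against their labels: replicate 3 of 1 mM melatonin (11434 CPM of macrophage markers, against 4632 CPM in the lowest of its group) was like the lower doses, and replicate 1 of 1 µM melatonin (4365 CPM) was like the other 1 mM libraries. The 6 markers other than Lyz2 and Csf1r gave the same picture, at 1054 CPM in the first of these libraries, 562 CPM in the second, and 578 and 597 CPM in the other 2 libraries of 1 mM melatonin. Some results that rest on these 2 doubted libraries are also given without them.

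Sequences of genes in the set are shown for the AU-rich element of the Tnf mRNA, a known control point of its decay, and for the 2 promoters of the set in which an NF-kB consensus motif was found. The 30 bases below lie at bases 1313 to 1342 of the longest protein-coding Tnf transcript in GENCODE M21. Capitals mark overlapping copies of the 9-base element TTATTTATT that lie wholly within these 30 bases.
Tnf AU-rich site: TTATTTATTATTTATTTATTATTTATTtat
This stretch held 4 of the 5 copies in the Tnf transcript of 1639 bases in full. The remaining copy overlaps the last of these and runs past the end of the 30 bases shown, so its lower-case bases are not marked. Birc3 held 3 copies, Tnfaip3 held 1, and the other 7 genes held none, where 7.977% of 21901 protein-coding genes held at least 1 in their longest transcript. The promoter windows below are those of RefSeq on GRCm38.p6, from 250 bases before to 50 bases after a gene's start, read on the gene's strand. Capitals mark matches to the 10-base NF-kB consensus motif on either strand.
Tnfaip3 promoter, chr10:19015361-19015660, minus strand: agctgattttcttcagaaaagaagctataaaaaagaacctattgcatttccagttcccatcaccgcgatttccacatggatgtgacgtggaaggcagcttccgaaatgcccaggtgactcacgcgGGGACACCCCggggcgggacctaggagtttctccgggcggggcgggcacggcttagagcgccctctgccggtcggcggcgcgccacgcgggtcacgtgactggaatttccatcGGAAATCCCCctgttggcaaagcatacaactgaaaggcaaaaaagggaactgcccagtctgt
Tnip1 promoter, chr11:54962891-54963190, minus strand: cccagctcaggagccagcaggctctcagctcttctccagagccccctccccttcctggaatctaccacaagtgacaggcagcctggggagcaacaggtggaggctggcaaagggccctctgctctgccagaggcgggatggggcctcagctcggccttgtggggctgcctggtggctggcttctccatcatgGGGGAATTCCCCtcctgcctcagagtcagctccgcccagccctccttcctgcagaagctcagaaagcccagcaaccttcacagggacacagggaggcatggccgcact
Tnf promoter, chr17:35201958-35202257, minus strand: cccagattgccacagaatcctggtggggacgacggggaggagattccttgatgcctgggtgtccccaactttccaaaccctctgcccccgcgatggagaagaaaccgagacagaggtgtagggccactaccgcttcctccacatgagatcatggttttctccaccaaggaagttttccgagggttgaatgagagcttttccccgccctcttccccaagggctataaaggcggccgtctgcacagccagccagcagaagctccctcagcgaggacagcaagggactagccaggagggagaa
Tnfaip3 had 1 match at -125 to -116 and 1 on the other strand at -12 to -3, counted from the start site. Tnip1 had a palindrome at -58 to -47 that held 4 overlapping matches. The Tnf window had no match and is shown for comparison, as it is the window of the gene with the highest level. RefSeq windows were matched for 9 of the 10 genes, 10 windows in all, and 2 of these held the motif, against 4.505% of all 32851 windows. A match is a description of letters and was not tied to binding in these cells.

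With LPS, 8 of the 10 genes were called higher than with solvent (adjusted p under 0.05, edgeR quasi-likelihood test), where 8.4% of all tested genes were called higher and 8.09% lower. This contrast was used to choose the genes. Log2 fold changes spanned 4.53 ± 0.47 (SE) for Cd40 to 0.46 ± 0.25 for Tnfrsf1a, with Traf2 (0.55 ± 0.38) next to the lowest. Compared per length, as deposited FPKM, Tnf stood highest in every one of the 3 conditions compared here, at 385 ± 90.7 with LPS and 1 mM melatonin, 740.4 ± 21.5 with LPS and 104 ± 8.61 with solvent (SD, n = 3 each), with no overlap with the next gene. In LPS-treated cells Tnfrsf1b (68.5 ± 8.71 FPKM) and Cd40 (62.9 ± 9.83 FPKM) followed with overlapping libraries, and then Tnfaip2 (46.6) and Tnip1 (43.0), which overlapped as well. Traf2 was lowest at 5.34 ± 2.13 FPKM, below the libraries of Traf1. With LPS and 1 mM melatonin the order differed, with Tnip1, Cd40, Tnfrsf1a and Tnfaip2 overlapping in turn between 32.3 and 20.5 FPKM, and Tnfrsf1b below them at 10.3 ± 2.72 FPKM. With solvent, Tnfrsf1a, Tnip1 and Tnfaip2 overlapped between 14.8 and 12.0 FPKM, and the 6 genes from Tnfrsf1b down to Cd40 overlapped in turn between 5.40 and 2.75 FPKM.

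**Figure D1:**
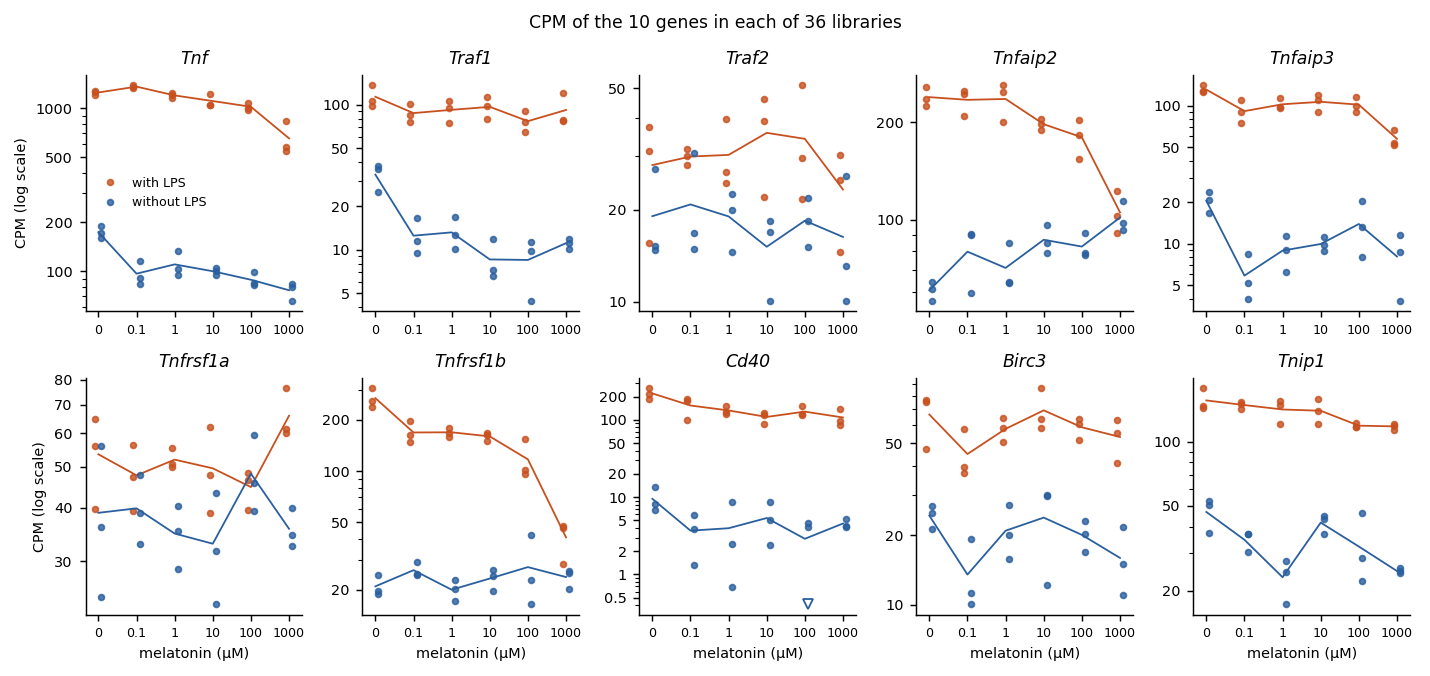
CPM of each of the 10 genes (log scale) against melatonin dose in µM, with 0 for LPS or solvent without melatonin; points are libraries, lines join the means of 3 libraries, orange is with LPS and blue without, and an open triangle marks a library with 0 counts, drawn at 3 counts. The 2 colours are apart at each dose for Tnf, Tnfrsf1b, Traf1, Tnfaip3, Cd40, Birc3 and Tnip1, and they meet at 1000 µM for Tnfaip2.

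The ligand gene Tnf (ENSMUSG00000024401, chr17:35199381-35202007, minus strand, mm10, protein coding) had 578, 545 and 834 CPM with LPS and 1 mM melatonin, against 1252, 1208 and 1282 CPM with LPS. All 3 libraries with 1 mM lay below all 3 with LPS, and replicate 3, the shallowest library, stood above the other 2. The change was -0.94 ± 0.14 (log2, SE), a fall that was known when the genes were chosen and is given without a p. In bulk RNA, fewer cells that express a gene and less RNA per cell cannot be told apart. From 0.1 to 100 µM melatonin with LPS, means were 1355, 1197, 1105 and 1019.6 CPM, with libraries between 973 and 1381 CPM. At 0.1 µM all 3 libraries stood above those with LPS, and at 100 µM all 3 stood below, yet neither passed the test (0.12 ± 0.14, adjusted p = 0.775, and -0.29 ± 0.14, adjusted p = 0.373, edgeR with Benjamini-Hochberg adjustment); with only the compared groups in the fit the 100 µM change passed (adjusted p = 0.0163).

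Without LPS, Tnf had 83.5, 79.6 and 66.0 CPM with 1 mM melatonin, against 172, 189 and 159 CPM with solvent. The 15 libraries of melatonin alone had a lowest value of 66.0, a median of 94.0 and a highest value of 134 CPM, and all 15 lay below the lowest solvent library (159 CPM). Tnf was higher with LPS at every melatonin dose than with the same dose alone, by 3.81 ± 0.15, 3.44 ± 0.15, 3.47 ± 0.15, 3.53 ± 0.15 and 3.09 ± 0.15 (log2, SE) from 0.1 µM to 1 mM, each with all 3 LPS libraries above the others. Between doses, Tnf was lower with 1 mM than with 0.1 µM melatonin in the presence of LPS (-1.05 ± 0.14), which includes the known fall and is given without a p, and without LPS the same difference was -0.34 ± 0.14 (adjusted p = 0.325). The difference of these differences was -0.72 ± 0.20 (adjusted p = 0.0482, 0.0625 with the replicate number as a block, 0.283 with only the compared groups fitted). Leaving out 1 library ended this call for 9 of the 12 libraries in it, with adjusted p up to 0.173, the highest without replicate 2 of 0.1 µM melatonin alone. The contrast includes the libraries of the known fall and those of melatonin alone, on which the genes were chosen. Its p-values are therefore no independent evidence.

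The receptor gene Tnfrsf1b (ENSMUSG00000028599, chr4:145213463-145246870, minus strand), which encodes TNFR2, showed the largest fall of the set with 1 mM melatonin. It had 46.3, 28.2 and 47.7 CPM with LPS and 1 mM melatonin, against 239.8, 306 and 260.0 CPM with LPS. The groups did not overlap, and the change was -2.73 ± 0.23 (adjusted p = 1.1e-11). At 100 µM it had 96.4, 101 and 154 CPM and also fell (-1.20 ± 0.22, adjusted p = 0.00105). Libraries with LPS and 0.1, 1 and 10 µM melatonin averaged 169, 169 and 160.0 CPM, all 9 below the lowest LPS library (239.8 CPM), with changes of -0.67 ± 0.22, -0.67 ± 0.22 and -0.75 ± 0.22. These did not pass the test (adjusted p = 0.123, 0.161 and 0.142), and all 3 passed when only the compared groups were fitted (adjusted p = 6.8e-04, 3.7e-04 and 1.1e-05). The 5 comparisons share the 3 LPS libraries.

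Melatonin alone left Tnfrsf1b between 16.6 and 42.3 CPM (median 24.2), a range that took in the solvent libraries (18.9, 19.6 and 24.4 CPM). The LPS response over the same melatonin dose was 2.69 ± 0.24, 3.08 ± 0.24, 2.78 ± 0.24, 2.10 ± 0.23 and 0.77 ± 0.23 from 0.1 µM to 1 mM, past the threshold at each dose. At 1 mM the call (adjusted p = 0.023) was lost without replicate 1 or 3 of LPS with 1 mM melatonin (0.103 and 0.112), without replicate 2 of 1 mM melatonin alone (0.121) and with only the compared groups fitted (0.214). The response was smaller at 1 mM than at 0.1 µM (difference -1.92 ± 0.32, adjusted p = 3.2e-04), a difference that held under every alternative run. It uses libraries of melatonin alone, on which the genes were chosen.

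Tnfrsf1a (ENSMUSG00000030341, chr6:125349362-125362484, plus strand), which encodes TNFR1, had 59.9, 76.4 and 61.5 CPM with LPS and 1 mM melatonin, against 55.8, 39.7 and 64.9 CPM with LPS. These overlapped, and the difference was 0.30 ± 0.25 (adjusted p = 0.567). With 1 mM melatonin alone it had 40.01, 34.6 and 32.6 CPM, so the LPS response at 1 mM was 0.88 ± 0.25 with groups apart (adjusted p = 0.0169). That call was lost without the 2 doubted libraries (adjusted p = 0.0643), with only the compared groups fitted (0.0612), and without replicate 2 or 3 of 1 mM melatonin alone (0.0595 and 0.0714) or replicate 2 of LPS with 1 mM melatonin (0.0854). At the lower doses the response ranged from -0.11 ± 0.25 at 100 µM to 0.59 ± 0.25 at 10 µM, and none passed.

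The ratio of Tnfrsf1b to Tnfrsf1a, taken in each library from FPKM so that gene length is allowed for, was 0.524, 0.2505 and 0.527 with LPS and 1 mM melatonin, against 2.92, 5.23 and 2.72 with LPS. The first 3 values lay within the range of the solvent libraries (0.228, 0.369 and 0.670) and all below those with LPS. In log2 terms the ratio differed by -3.08, with an exact two-sided permutation p of 0.1, the smallest that 3 against 3 libraries can give. Means with LPS were 3.62, 2.48, 2.21, 2.25, 1.77 and 0.434 from 0 to 1000 µM melatonin, and without LPS they stayed between 0.396 and 0.523. The ratio at 1 mM with LPS differed from that at 1 mM alone by -0.14 in log2 terms (exact permutation p = 1), against 2.43 at 0.1 µM (exact permutation p = 0.1).

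**Figure D2:**
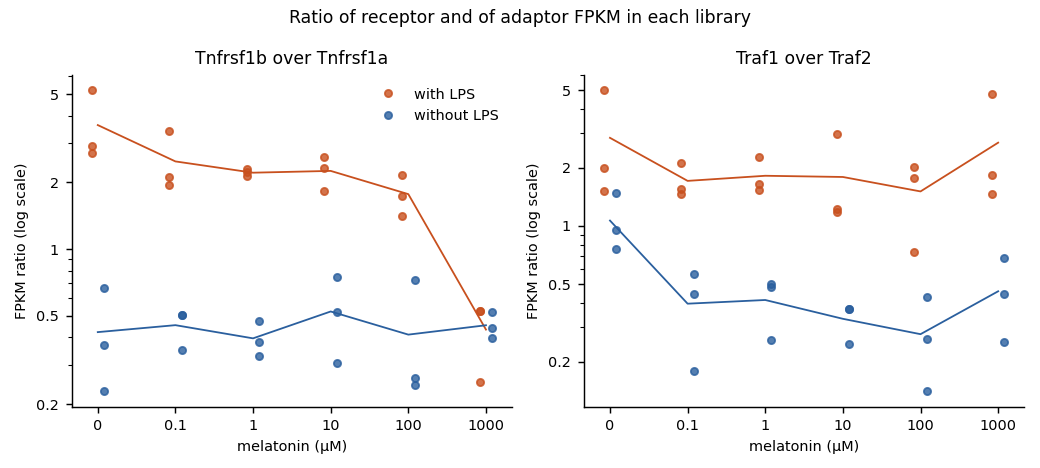
Ratio of FPKM in each library (log scale) against melatonin dose in µM, for Tnfrsf1b over Tnfrsf1a (left) and Traf1 over Traf2 (right); points are libraries, lines join means of 3, orange is with LPS and blue without. On the left the orange mean is 0.434 at 1000 µM, inside the blue range, and on the right it is 2.69, among the orange values of the other doses.

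Cd40 (ENSMUSG00000017652, chr2:165055627-165072948, plus strand) encodes a TNF-family receptor that macrophages use to receive signals from T cells. It had 97.3, 140.3 and 84.8 CPM with LPS and 1 mM melatonin, against 219.5, 186 and 255 CPM with LPS. The groups were apart, but the change of -1.03 ± 0.39 missed the threshold (adjusted p = 0.111) and passed it with no filter on low counts (1.5e-04) or with only the compared groups fitted (0.0105). Over all 5 doses, the 15 libraries with LPS and melatonin had a lowest value of 84.8, a median of 119 and a highest value of 185 CPM, all below the lowest LPS library (185.9 CPM), and changes ranged from -1.03 ± 0.39 at 1 mM to -0.52 ± 0.39 at 0.1 µM. The LPS response at each dose was 5.35 ± 0.51, 5.05 ± 0.50, 4.33 ± 0.48, 5.46 ± 0.51 and 4.55 ± 0.49 from 0.1 µM to 1 mM, each past the threshold. Levels without LPS were low, at 4.29, 5.22 and 4.17 CPM with 1 mM melatonin and 8.16, 13.5 and 6.89 CPM with solvent, and replicate 1 of 100 µM melatonin had 0 counts, which allows up to 0.417 CPM (3 counts, counting error only).

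Traf1 (ENSMUSG00000026875, chr2:34941750-34961772, minus strand), an adaptor that binds TNFR2 and TRAF2, had 76.9, 79.0 and 120.1 CPM with LPS and 1 mM melatonin, against 136, 107 and 97.3 CPM with LPS. The groups overlapped (-0.30 ± 0.25, adjusted p = 0.564). Without LPS it had 11.9, 10.2 and 11.2 CPM with 1 mM melatonin, against 37.9, 35.8 and 25.2 CPM with solvent, and all 15 libraries of melatonin alone (4.46 to 16.8 CPM) lay below the lowest solvent library. The LPS response was 2.81 ± 0.28, 2.80 ± 0.28, 3.49 ± 0.29, 3.18 ± 0.29 and 3.05 ± 0.28 from 0.1 µM to 1 mM, past the threshold at each dose, and did not differ detectably between 1 mM and 0.1 µM (0.23 ± 0.38, adjusted p = 0.903). Set against Traf2 per length, Traf1 stood at 2.69 ± 1.81 times the FPKM of Traf2 with LPS and 1 mM melatonin and at 2.85 ± 1.92 times with LPS (SD, n = 3 each, exact permutation p = 0.7).

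Traf2 (ENSMUSG00000026942, chr2:25517982-25546940, minus strand), the adaptor shared by TNFR1 and TNFR2, had 30.3, 25.03 and 14.6 CPM with LPS and 1 mM melatonin, against 15.6, 31.1 and 37.3 CPM with LPS, a difference within the spread (-0.26 ± 0.38, adjusted p = 0.788). Its LPS response passed at 10 µM (1.23 ± 0.38, adjusted p = 0.0202) and at none of the other 4 doses. That call was lost without replicate 1 or 2 of LPS with 10 µM melatonin (adjusted p = 0.0638 and 0.119) or replicate 3 of 10 µM melatonin alone (0.127). Birc3 (ENSMUSG00000032000, chr9:7848699-7873186, minus strand), which encodes the ligase cIAP2, had 41.1, 55.5 and 63.1 CPM with LPS and 1 mM melatonin, against 47.0, 75.5 and 77.1 CPM with LPS, again overlapping (-0.32 ± 0.29, adjusted p = 0.599). Its LPS response was 1.74 ± 0.30, 1.46 ± 0.30, 1.54 ± 0.29, 1.54 ± 0.30 and 1.73 ± 0.30 from 0.1 µM to 1 mM, all past the threshold. The response at 1 mM minus that at 0.1 µM was 0.00, given without an SE because the SE used here is unreliable so near 0.

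Tnfaip3 (ENSMUSG00000019850, chr10:19000910-19015657, minus strand) encodes A20, a ubiquitin-editing enzyme that limits NF-kB signalling, and its promoter is printed above. It had 53.3, 52.2 and 66.9 CPM with LPS and 1 mM melatonin, against 140.2, 127 and 124 CPM with LPS. The groups did not overlap, and the gene fell (log2 change -1.18 ± 0.26, adjusted p = 0.00206). At the 4 lower doses all 12 libraries also lay below the LPS libraries, at 74.9 to 120.2 CPM, with changes of -0.52 ± 0.26, -0.35 ± 0.26, -0.29 ± 0.26 and -0.36 ± 0.26 from 0.1 to 100 µM, none past the threshold. Without LPS, Tnfaip3 had 8.40, 4.02 and 5.23 CPM with 0.1 µM and 11.6, 8.75 and 3.88 CPM with 1 mM melatonin, against 16.7, 23.9 and 20.8 CPM with solvent. The LPS response was 3.94 ± 0.31, 3.52 ± 0.30, 3.41 ± 0.29, 2.87 ± 0.28 and 2.82 ± 0.29 from 0.1 µM to 1 mM, past the threshold each time. The response at 1 mM minus that at 0.1 µM was -1.12 ± 0.41, which missed the threshold (adjusted p = 0.192) and passed it without the 2 doubted libraries (-1.46, adjusted p = 0.0220).

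Tnip1 (ENSMUSG00000020400, chr11:54910785-54962917, minus strand) encodes ABIN1, a ubiquitin-binding partner of A20. It had 114, 119 and 122 CPM with LPS and 1 mM melatonin, against 144, 178 and 147 CPM with LPS. The groups were apart, yet the change of -0.41 ± 0.19 did not pass (adjusted p = 0.216). The LPS response was 2.10 ± 0.20, 2.61 ± 0.20, 1.74 ± 0.19, 1.88 ± 0.20 and 2.25 ± 0.20 from 0.1 µM to 1 mM and passed at every dose. All 15 libraries with melatonin and LPS (113.7 to 159 CPM) stayed below the highest LPS library (178 CPM), and 10 of them lay below the lowest (144 CPM).

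Tnfaip2 (ENSMUSG00000021281, chr12:111442469-111455018, plus strand), a TNF-induced gene whose protein acts in membrane protrusions, had lower values with 1 mM melatonin than without it in the presence of LPS, and higher values in its absence. It had 102, 123 and 90.8 CPM with LPS and 1 mM melatonin, against 236, 256 and 224 CPM with LPS, and fell (-1.18 ± 0.16, adjusted p = 9.9e-07). Without LPS it had 114, 97.6 and 92.8 CPM with 1 mM melatonin, against 61.3, 64.1 and 56.3 CPM with solvent, so that all 3 melatonin libraries were the higher ones (0.75 ± 0.16). The LPS response was 1.56 ± 0.16, 1.73 ± 0.16, 1.18 ± 0.16, 1.12 ± 0.16 and 0.05 ± 0.16 from 0.1 µM to 1 mM. It passed the threshold at 4 doses and was not detected at 1 mM (adjusted p = 0.921), where libraries with and without LPS overlapped and the sign turned to -0.01 without the 2 doubted libraries. The response at 1 mM minus that at 0.1 µM was -1.50 ± 0.23 (adjusted p = 5.2e-05), a call that held under every alternative run. It uses libraries of melatonin alone, on which the genes were chosen. Of 4984 exon bases, 314 are shared with the antisense gene Gm40578, and whether counting used strand is not given in the sources used here, so reads there cannot be told apart.

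Melatonin alone was called against solvent for 3, 3, 2, 2 and 5 of the 10 genes from 0.1 µM to 1 mM, 15 of 50 gene-by-dose pairs in all and 14 of them lower, where 0.341%, 0.147%, 0.0824%, 0.0824% and 0.418% of all tested genes were called in either direction. The genes were chosen with this contrast in view. Without the 2 doubted libraries, none of the 15 calls was lost. Over all tested genes that fit called 57 higher and 40 lower at 1 µM, against 11 and 14. At 1 mM it called 132 higher and 367 lower, against 17 and 54. Log2 fold changes of Tnf were -0.85 ± 0.14, -0.66 ± 0.14, -0.80 ± 0.14, -0.97 ± 0.14 and -1.18 ± 0.14 from 0.1 µM to 1 mM. Those of Traf1 were -1.40 ± 0.27, -1.32 ± 0.27, -1.94 ± 0.28, -1.95 ± 0.28 and -1.57 ± 0.27. All 5 values of both genes were negative. Tnfaip3 had -1.79 ± 0.30, -1.20 ± 0.29, -1.04 ± 0.29, -0.56 ± 0.28 and -1.34 ± 0.29. Tnip1 had -0.43 ± 0.20, -1.02 ± 0.20, -0.17 ± 0.19, -0.54 ± 0.19 and -0.92 ± 0.20. Tnfaip2 went the other way at 1 mM, as given above, and 13 of its 15 libraries with melatonin alone stood above the highest solvent library (64.1 CPM). Of the 15 libraries, 10 lay below the lowest solvent library for Birc3 and 13 for Cd40. The 5 comparisons share the 3 solvent libraries: without replicate 1 or 2 of solvent 9 pairs were called, with only the compared groups fitted 8, and with no filter on low counts 21. Over all genes, only the compared groups gave 171, 1, 32, 16 and 4 calls higher from 0.1 µM to 1 mM. Calls lower were 241, 1, 65, 19 and 8. With no filter, calls higher were 54, 33, 15, 17 and 31, and calls lower were 83, 56, 34, 23 and 120.

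**Figure D3:**
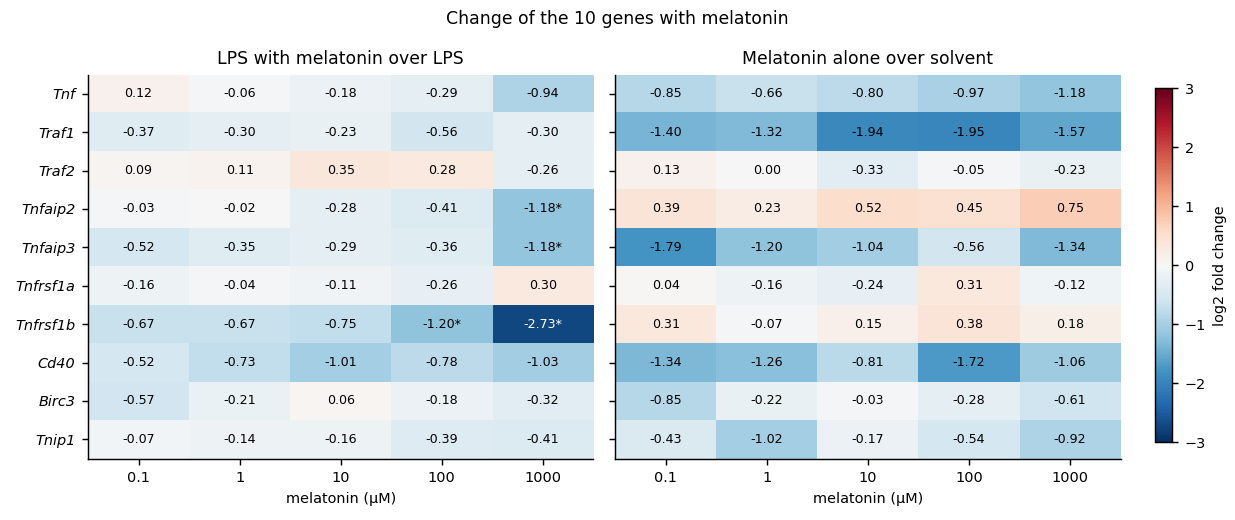
Log2 fold change (colour and number) of the 10 genes at each melatonin dose in µM, for LPS with melatonin over LPS (left) and melatonin alone over solvent (right, with no test marked because the genes were chosen on it); an asterisk on the left marks an adjusted p under 0.05, and Tnf at 1000 µM is left unmarked because its fall was known beforehand. Asterisks stand at 1000 µM for Tnfaip2, Tnfaip3 and Tnfrsf1b and at 100 µM for Tnfrsf1b.

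Under LPS, 1 mM melatonin lowered 3 of the 9 genes other than Tnf (Tnfaip2, Tnfaip3 and Tnfrsf1b) and raised none of the 9, where 4.71% of all tested genes fell and 2.84% rose. The lower Tnf was known beforehand and is not counted. The 3 LPS libraries used here as the baseline also served to choose the genes. This count is therefore a description and no independent evidence. At 0.1, 1 and 10 µM none of the 10 passed (edgeR quasi-likelihood test, 1, 1 and 2 with an unadjusted p under 0.05, and none by DESeq2), where 0.706%, 0.318% and 0.177% of all genes were called lower. At 100 µM Tnfrsf1b was the 1 gene called, against 0.547% of all genes called lower. Over these 4 lower doses 1 of 40 gene-by-dose pairs passed, and 11 passed with only the compared groups fitted, all lower and 8 of them Tnfrsf1b and Cd40. Those fits called 320, 287, 261 and 406 of all tested genes lower from 0.1 to 100 µM. The main fit called 120, 54, 30 and 93. The sum of macrophage markers was lower at 1 mM as well (2701 to 3722 CPM, against 11018 to 11208 CPM with LPS), and its part in these falls was not tested.

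With LPS, 8, 8, 9, 8 and 8 of the 10 genes were called higher than with the same dose of melatonin alone, from 0.1 µM to 1 mM. The genes had been chosen on their LPS response and on the same libraries of melatonin alone, so these counts are a description and no independent evidence. The share of all tested genes called higher was 7.95%, 7.98%, 8.44%, 9.06% and 4.87%. Of the 50 pairs, 41 passed, and 40 without the 2 doubted libraries. Traf2 joined the others at 10 µM, and at 1 mM Tnfrsf1a took the place of Tnfaip2. Between 1 mM and 0.1 µM melatonin, no gene of the set passed without LPS (edgeR, 3 at an unadjusted p under 0.05, none by DESeq2), where 0.524% of all genes did. This contrast holds a doubted library. Without the 2 doubted libraries, 175 of all tested genes were called higher and 449 lower, against 29 and 60. How many of the set passed in that fit is not given here. With LPS, Tnf aside, 2 of the other 9 were lower at 1 mM (5.28% of all genes): Tnfaip2 (-1.15 ± 0.16, adjusted p = 1.6e-06) and Tnfrsf1b (-2.05 ± 0.23, adjusted p = 1.3e-08). The LPS response itself was smaller at 1 mM for these 2 genes and for Tnf, whose test includes the libraries of the known fall. Of all genes, 1.11% were called with a negative difference, whichever way LPS moved them. This contrast also uses the libraries of melatonin alone, so its calls are no independent evidence. For the other 7 the difference ranged from -1.12 ± 0.41 (Tnfaip3) to 0.63 ± 0.36 (Tnfrsf1a).

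**Figure D4:**
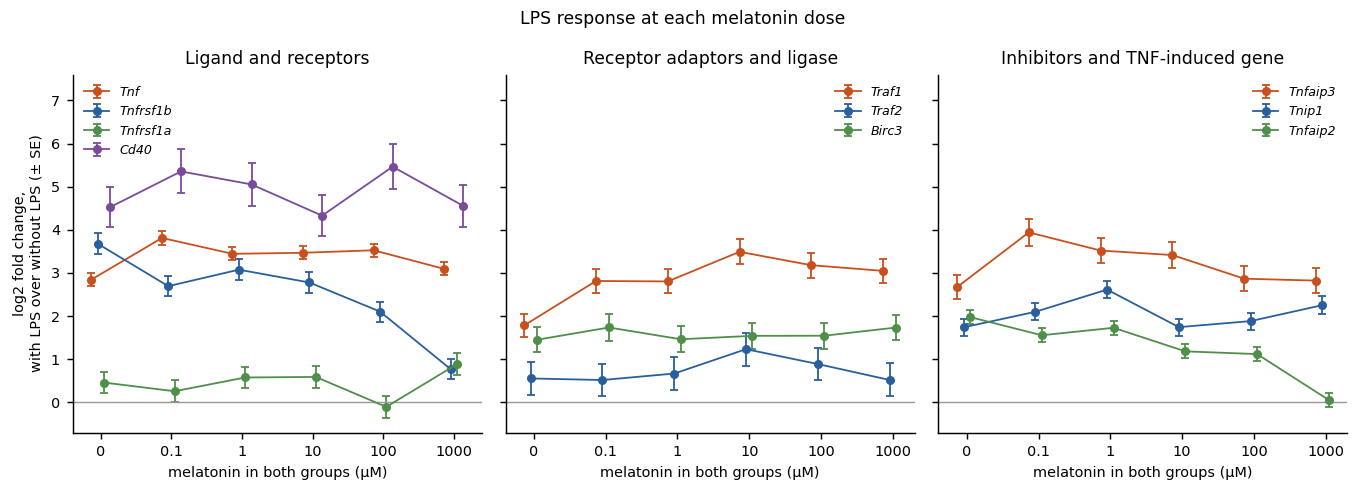
Log2 fold change with LPS over without LPS (points, with bars of 1 SE) at each melatonin dose in µM, 0 being LPS over solvent, for ligand and receptors (left), adaptors and ligase (middle) and inhibitors and the TNF-induced gene (right). Tnfrsf1b and Tnfaip2 drop at 1000 µM, to 0.77 and 0.05, while Traf1, Birc3 and Tnip1 keep values of 3.05, 1.73 and 2.25 there.

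A slope over dose with LPS, a contrast chosen after the data were seen, was negative for Tnf (-0.23 ± 0.03 log2 units per 10-fold dose), Tnfaip2 (-0.27 ± 0.04) and Tnfrsf1b (-0.46 ± 0.05) over the 5 doses. These 3 slopes include the 1 mM group, in which the falls had been seen, and are given without p-values; 4.63% of all genes were called with a negative slope, from which nothing is read. Without the 1 mM group the slopes were -0.13 ± 0.04, -0.14 ± 0.05 and -0.17 ± 0.07, and none of the 10 genes passed (edgeR, 3 at an unadjusted p under 0.05), nor did any gene with a negative slope (0%).

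Among 8634 protein-coding genes with a mean of at least 5 CPM, the pattern of Tnf over the 12 group means was most like those of Oas1g, Slfn2, Ehd1, Rhoc and Ccl3. Their root mean square differences from Tnf in centred log2 CPM were 0.23, 0.29, 0.30, 0.31 and 0.31. Within the set, Tnfaip3 was nearest to Tnf (0.33), and of all eligible genes Tnf was the nearest to Tnfaip3. The nearest genes of the others were Nfkbia for Traf1 (0.32), Cndp2 for Tnfaip2 (0.14), Jak1 for Tnfrsf1a (0.08), Slfn4 for Tnfrsf1b (0.20), Isg20 for Cd40 (0.63), Relb for Birc3 (0.15), Plagl2 for Tnip1 (0.16) and Sept7 for Traf2 (0.09). Genes that vary little, such as Traf2 and Tnfrsf1a, are close to many others by this measure.

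Of 83 further genes of the pathway, 69 were tested, in 5 lists. The lists were also chosen with earlier results of these data known. Their counts and p-values, here and in the next paragraphs, are therefore a description and no independent evidence. With LPS and 1 mM melatonin against LPS, 4 rose and 2 fell (2.84% and 4.71% of all tested genes), with a median log2 change of 0.18 beside 0.02 over all tested genes. With LPS over 0.1 µM melatonin alone, 11 rose and 4 fell, where 7.95% and 7.71% of all genes did (median 0.15, against -0.02 over all genes). With LPS over 1 mM melatonin alone 10 rose and 1 fell, where 4.87% and 4.75% of all genes did (median 0.23, against 0).

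Of 10 tested ligand genes, Tnfsf9, which encodes the ligand of CD137, rose with 1 mM melatonin under LPS (122 ± 19.99 CPM, against 70.2 ± 18.6 CPM with LPS, 0.80 ± 0.25, adjusted p = 0.0335), and Tnfsf13b (0.60 ± 0.36) and Tnfsf12 (0.35 ± 0.63) did not pass. None of 14 receptor genes passed in that comparison. Tnfrsf11a, the receptor for RANKL, was 138 ± 6.79 CPM with LPS and 1 mM melatonin and 149 ± 18.9 CPM with LPS (-0.11 ± 0.19), while Tnfrsf23 (0.69 ± 0.32) and Ltbr (0.81 ± 0.42) had adjusted p of 0.211 and 0.283. None of 22 genes of the receptor complex and kinases passed either, among them Tab2 (-0.27 ± 0.14), Ripk1 (0.35 ± 0.15) and Chuk (-0.10 ± 0.21).

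The 13 inhibitors and deubiquitinases split, with Otud7b and Tnfaip8l2 higher and Otulin and Cflar lower with 1 mM melatonin under LPS. Cflar, which encodes the caspase 8 inhibitor c-FLIP, had 192 ± 9.84 CPM, against 338 ± 7.91 CPM with LPS (-0.81 ± 0.14, adjusted p = 6.3e-05). It rose with LPS over 0.1 µM melatonin alone (2.17 ± 0.15, adjusted p = 1.9e-15), as did Tax1bp1, an adaptor of A20 (0.82 ± 0.17, adjusted p = 4.4e-04). Xiap (-0.09 ± 0.14) did not pass with 1 mM. Of 10 genes of TNF mRNA control and shedding, Zfp36, which encodes tristetraprolin, a protein that binds AU-rich elements, was the 1 called with 1 mM under LPS, and this gene and the 3 others called beside Cflar in the inhibitor list were named after their values were seen. Zfp36 rose to 172 ± 78.3 CPM (98.6 to 254 CPM), against 78.7 ± 7.02 CPM (70.6 to 83.6 CPM) with LPS (1.12 ± 0.21, adjusted p = 2.7e-04), and no relation between its level and that of Tnf was tested. LPS itself lowered Zfp36: it was called lower with LPS than with solvent. It was also called lower than with the same dose alone at 0.1, 1, 10 and 100 µM, and was not called at 1 mM. Litaf (-0.44 ± 0.15), Elavl1 (-0.23 ± 0.19) and Rc3h1 (0.21 ± 0.17) had adjusted p of 0.0724, 0.582 and 0.547.

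**Figure D5:**
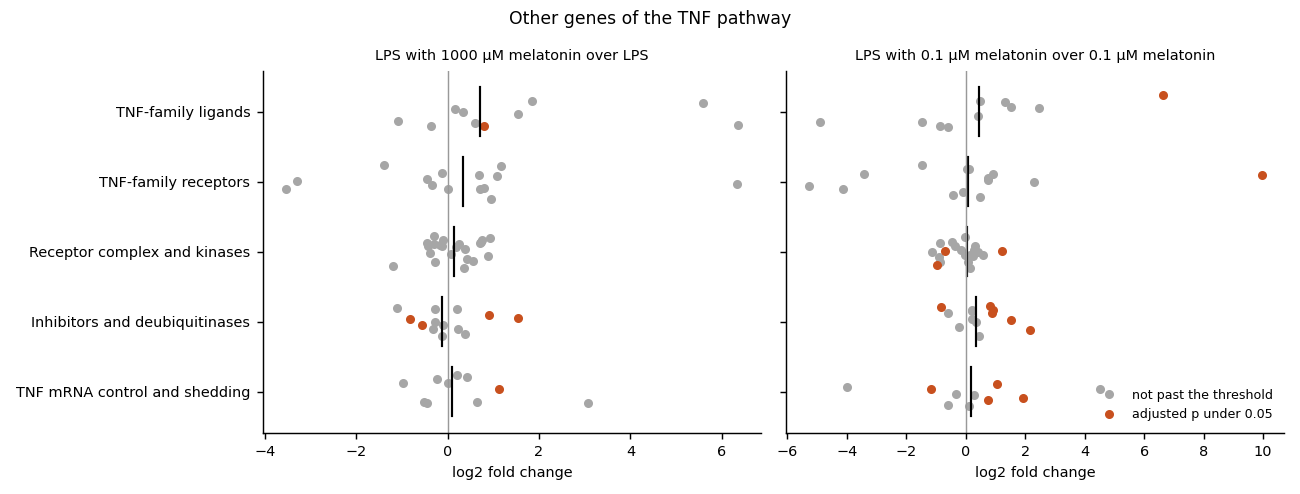
Log2 fold change of the 69 other TNF pathway genes by list, for LPS with 1000 µM melatonin over LPS (left) and LPS with 0.1 µM melatonin over 0.1 µM melatonin (right); points are genes, orange with an adjusted p under 0.05 and grey otherwise, and black bars are list medians. On the left 6 points are orange and on the right 15.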

How the data were processed

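RNA was sequenced from 36 libraries of RAW 264.7 cells, 3 in each of 12 groups taken from the sample titles. Per the submitters' processing notes, cutadapt and featureCounts were used with the genome build mm10; the aligner, versions, annotation release and strand setting are not given in the sources used here. The authors deposited raw counts per gene for all samples and a table of FPKM per gene with symbols, which were used for tests and for levels between genes. The members and gene lists were chosen with earlier results of these data known.

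Counts were tested with edgeR 4.0.16 (R 4.3.3): filterByExpr kept 16988 of 53465 genes, TMM factors were 0.914 to 1.19, a model with 1 mean for each group used all 36 libraries (glmQLFit, glmQLFTest, two-sided), and p-values were adjusted over all tested genes by Benjamini-Hochberg with a threshold of 0.05. The common dispersion was 0.266. SE is the absolute log2 fold change divided by the square root of F, which is unreliable where the change is very near 0. Totals of 4203313 to 7590271 counts make 3 counts worth 0.388 to 0.598 CPM, and floors cover counting error only. FPKM, as deposited by the authors, were compared between genes and as ratios by an exact permutation test. Gene IDs matched GENCODE M21 for 99.8%. The fit was checked on simulated counts.

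Named genes were the 10 members, the 3 genes of each of 5 pathway lists with the highest mean CPM, the 5 genes nearest to Tnf and the nearest of each other member; Zfp36, Otud7b, Tnfaip8l2 and Otulin were named outside this rule, after their values were seen. Alternatives were DESeq2 1.42.0, RLE size factors, no filter on low counts, the replicate number as a block, only the compared groups, 2 doubted libraries left out, and each library left out in turn; the slope over dose was added after the data were seen. Libraries with the same replicate number did not deviate together (mean correlation -0.0019, from -0.041 to 0.050 over 198 pairs), so the numbers were not taken as pairs.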

Additional observations from a re-analysis of the deposited data

Results flagged for a closer look

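The LPS response, taken as LPS with melatonin over the same dose of melatonin alone, differed between 1 mM and 0.1 µM for 3 of the 10 genes by the edgeR test of the difference itself. Tnfaip3, not among these 3, passed as well without the 2 doubted libraries, as given above. For Tnf the response at 1 mM minus that at 0.1 µM was -0.72 (log2, SE 0.20, adjusted p = 0.0482), a call lost in 11 of the alternative fits and one whose test includes the lower Tnf at 1 mM with LPS that was known beforehand. For Tnfaip2 it was -1.50 (SE 0.23, adjusted p = 5.2e-05), and for Tnfrsf1b -1.92 (SE 0.32, adjusted p = 3.2e-04). All 3 differences use libraries of melatonin alone, on which the genes were chosen, so they are no independent evidence. Macrophage markers were also lower with LPS and 1 mM melatonin (2701 to 3722 CPM) than with LPS and 0.1 µM melatonin (13311 to 14042 CPM), and their part in these differences was not tested.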

How the results depend on the processing

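Of 41 member calls of LPS over the same dose alone, 38 held under every alternative run, as did 8 of the 9 other calls outside the contrasts with solvent and the known lower Tnf at 1 mM. Of 23 calls against solvent, 14 held under every alternative and 9 were lost under at least 1. The 3 values that reversed all belong to a response that was not called, the LPS response of Tnfaip2 at 1 mM melatonin: -0.011 with 2 doubted libraries left out, and from -0.074 to 0.15 with 1 library left out. Gene-by-dose calls of melatonin alone against solvent numbered 15, against 8 with only the compared groups fitted, 16 by DESeq2, 21 with no filter on low counts and 9 to 15 with 1 library left out. Calls at the 4 lower doses with LPS numbered 1, against 3 with no filter on low counts and 11 with only the compared groups fitted; the cause was not tested. Over all genes, no filter gave 142, 89, 63 and 160 calls higher and 167, 98, 66 and 148 lower from 0.1 to 100 µM. Counts over all genes moved between the settings for melatonin alone as well. With the replicate block, 2 of the 3 differences of LPS responses were called in place of 3, and no other count of calls moved (15 for melatonin alone, 41 for LPS over the same dose). With 1 library left out, 2 to 4 genes of the set were called for that difference. Tnfaip3 was also called for it without the 2 doubted libraries. RLE scaling moved no median by 0.1. Depth limits the low genes most, such as Cd40 without LPS.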
